A study of Danio rerio with 10 samples.

Results

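In yellow fin tissue of zebrafish, 146 of 57775 listed transcripts were enriched in sorted xanthophores over the sorted cells of white fin tissue. They were chosen by their levels in the libraries described here. The lowest of the 5 xanthophore libraries had to reach at least 2 times the highest of the 5 xantho-leucophore libraries, in CPM (estimated counts scaled to the same total in every library). The mean had to be at least 10 CPM in xanthophores and below 1000 CPM in both groups, which 11396 transcripts met. The higher level in xanthophores is therefore a property of the choice, and the levels below describe these transcripts without testing that difference.

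Cells were sorted for green fluorescence from the anal fin of Tg(aox5:palmEGFP) zebrafish of about 14 mm standard length. The group called xanthophore came from yellow regions of the fin and the group called xantho-leucophore from white regions, with 5 libraries each. Both carried the same reporter, a membrane-bound green fluorescent protein under the aox5 promoter, so the sort does not separate the types and the fin region does. Each library pooled 20 fish, libraries came from the SMART-Seq mRNA LP kit, and the labels name no treatment. The design text calls the samples of each group biological replicates and does not state whether yellow and white tissue of a number came from the same fish.

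Xanthophores are yellow to orange pigment cells of the neural crest lineage, whose colour comes from carotenoids and pteridines. The gene aox5 encodes an aldehyde oxidase and is a widely used marker of this lineage in zebrafish. Xantho-leucophores carry the reporter too but come from white regions, and how such cells differ from xanthophores is what the comparison addresses. The files list transcripts by Ensembl identifier alone, and 0 of the 57775 identifiers could be paired with a gene symbol in the tables used here. Neither the genes of the 146 transcripts, nor their pathways, nor the marker genes of xanthophores or other cell types could be read, so the cell type names are those of the labels. In bulk RNA, fewer cells that hold a transcript and less of it per cell cannot be told apart.

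Total estimated counts lay between 42104732 and 62617916 in the xanthophore libraries, and between 7735704 and 59106662 in the xantho-leucophore libraries, where replicate 2 was the shallowest. Xantho-leucophore replicate 2 stood apart in depth and fragment length. Xanthophore replicate 5 stood apart in 1 measure only, the share of transcripts chosen without it that it held at 2-fold. The number of chosen transcripts is also given without both. Called counts, fragment length and the spread of the members are also given without xantho-leucophore replicate 2. No spread is given without xanthophore replicate 5. Without both xanthophore replicate 5 and xantho-leucophore replicate 2 the rule chose 261 transcripts, 144 of them among the 146. Fragments, by the inferred mean length in the tables, were 197 ± 7.51 bases long in the xanthophore libraries and 218 ± 9.77 bases long in those of xantho-leucophores (SD over 5 libraries per group), and the groups did not overlap. Without xantho-leucophore replicate 2, the longest at 235.05 bases, the xantho-leucophore mean was 214 ± 2.85 bases (SD over the other 4 libraries), and the groups were still apart. Fragment length and cell type therefore cannot be told apart from group means alone.

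Together the 146 transcripts made up a small part of the RNA in either group. Their summed level was 24924, 25577, 23450.4, 23201 and 22329.8 CPM in xanthophore replicates 1 to 5. In xantho-leucophore replicates 1 to 5 it was 6684, 5967, 6414, 6761 and 6652 CPM. All xanthophore libraries lay far above all xantho-leucophore libraries, and the libraries of a group lay close together. The share of all estimated counts was 2.39% ± 0.132 in xanthophores, against 0.650% ± 0.0323 in xantho-leucophores (SD over 5 libraries per group).

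The order of the xanthophore libraries moved with another transcript. The most abundant transcript, by mean CPM over all 10 libraries, was no member of the set. It took 3.54% of the counts in xanthophore replicate 2, where the summed level was highest, and 19.4% in replicate 5, where that level was lowest. In CPM of the remaining counts, the sum was 26487, 26515, 26183, 26845 and 27700 in xanthophore replicates 1 to 5. Replicate 5 was then the highest of its group rather than the lowest. The same sums in xantho-leucophore replicates 1 to 5 were 7338, 7051, 7565, 7593 and 7340.1. The groups did not overlap on this scale either, which the 2-fold limit of the rule made all but certain.

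**Figure D1:**
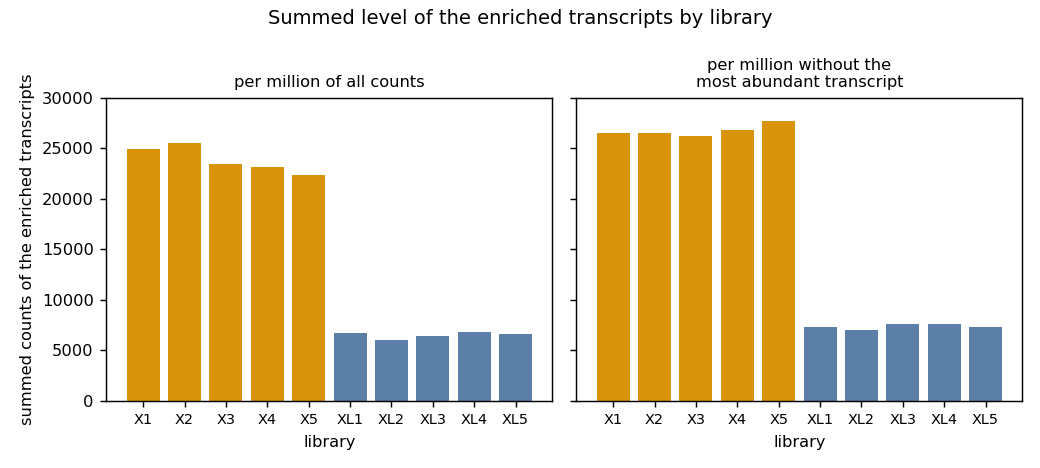
Summed level of the 146 enriched transcripts in each library (X, xanthophore; XL, xantho-leucophore; number, replicate), in CPM of all estimated counts on the left and of the counts without the most abundant transcript on the right. Xanthophore bars range from 22329.8 to 25577 on the left and from 26183 to 27700 on the right, all above the xantho-leucophore bars.

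Single members followed the same pattern with more spread. Of the 146, 143 had a count in at least 1 xantho-leucophore library. In xanthophore replicates 1 to 5, the median member was at 104%, 106%, 97.3%, 95.2% and 92.8% of its own xanthophore mean. In xantho-leucophore replicates 1 to 5 it was at 27.3%, 20.5%, 25.4%, 26.0% and 24.2% of that mean. Xantho-leucophore replicate 2 held the lowest median, and its middle 50% of members, from 10.96% to 30.5%, reached furthest down.

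**Figure D2:**
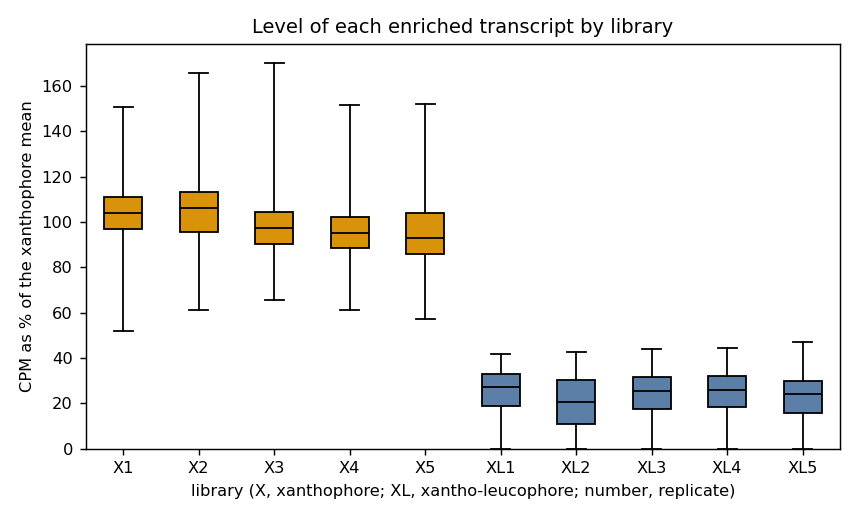
CPM of each of 143 enriched transcripts as a percentage of its own xanthophore mean, by library. Boxes span the middle 50% of transcripts with the median as a line, and whiskers reach the lowest and highest transcript. Medians lie between 92.8% and 106% in xanthophores and between 20.5% and 27.3% in xantho-leucophores.

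The most abundant member was ENSDART00000171984.3, a transcript of 697 bases. It had 828, 913, 748, 733 and 733 CPM in xanthophore replicates 1 to 5, against 208, 186, 247, 242 and 226 CPM in xantho-leucophore replicates 1 to 5. The libraries of the groups lay well apart, with the lowest xanthophore library at 2.96 times the highest xantho-leucophore library. Its mean was 791 ± 79.1 CPM in xanthophores, against 222 ± 25.1 CPM in xantho-leucophores (SD over 5 libraries per group), a ratio of means of 3.57. Its estimated counts were whole in all 10 libraries, so they show no sign of reads split with another listed transcript.

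Per length the order of the members changed. In TPM, which divide counts by effective length before scaling to a fixed total, the same transcript averaged 2338 ± 181 TPM in xanthophores, against 650.4 ± 73.2 TPM in xantho-leucophores (SD over 5 libraries per group) and ranked second. The first was the shortest member, of 306 bases, with 2711 ± 98.8 TPM in xanthophores, against 819 ± 158 TPM in xantho-leucophores (SD over 5 libraries per group). It ranked only 29th by CPM. Of the 146 members, 57 averaged at least 100 TPM in xanthophores and 26 did so in xantho-leucophores, and the median member was at 72.0 TPM in xanthophores and 15.6 TPM in xantho-leucophores.

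Other members, picked for description after their values were seen, combined a high level with a wide separation. A transcript of 894 bases, with whole counts throughout, had 724, 761, 720.2, 647 and 592 CPM in xanthophores, against 143, 114, 122, 154 and 171 CPM in xantho-leucophores. A transcript of 2128 bases had 376, 415, 340.02, 353 and 361 CPM in xanthophores, against 71.9, 83.7, 33.9, 31.2 and 73.1 CPM in xantho-leucophores. The first was even across the xantho-leucophore libraries, whereas the second split them, with replicates 3 and 4 well below the other three. A transcript of 2065 bases had 649.5, 661, 578, 628 and 552 CPM in xanthophores, against 144, 80.4, 156, 142 and 145 CPM in xantho-leucophores, where replicate 2 was the low one. Counts were fractional in 9 libraries for the transcript of 2128 bases and in all 10 for that of 2065 bases. The levels of both therefore depend on how reads were shared out among transcripts.

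The widest separation belonged to scarcer transcripts. ENSDART00000138007.3, of 3287 bases, had 11.02, 13.8, 16.2, 10.8 and 10.4 CPM in xanthophore replicates 1 to 5, against 1.65, 0.390, 0.813, 0.522 and 0.569 CPM in xantho-leucophore replicates 1 to 5. Even its nearest libraries, xanthophore replicate 5 and xantho-leucophore replicate 1, differed 6.29 times. Its mean was 12.4 ± 2.50 CPM in xanthophores, against 0.788 ± 0.504 CPM in xantho-leucophores (SD over 5 libraries per group). Its counts were fractional in all 10 libraries, so its level depends on how reads were shared out among transcripts.

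The next in order was a transcript of 1225 bases, with 56.8, 53.6, 69.6, 64.3 and 63.8 CPM in xanthophores, against 9.33, 5.30, 9.04, 5.73 and 5.72 CPM in xantho-leucophores. It was both tight within each group and 5.74 times apart between the nearest libraries. The largest ratio of means among members with counts in both groups, 29.5, belonged to a transcript of 627 bases. It had 13.7, 34.2, 13.5, 23.4 and 18.3 CPM in xanthophores, against 0.697, 0, 2.80, 0 and 0 CPM in xantho-leucophores. A level of 3 counts corresponds to between 0.0508 and 0.388 CPM in the xantho-leucophore libraries, so this transcript was above that floor in replicates 1 and 3 and at 0 counts in the other three.

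**Figure D3:**
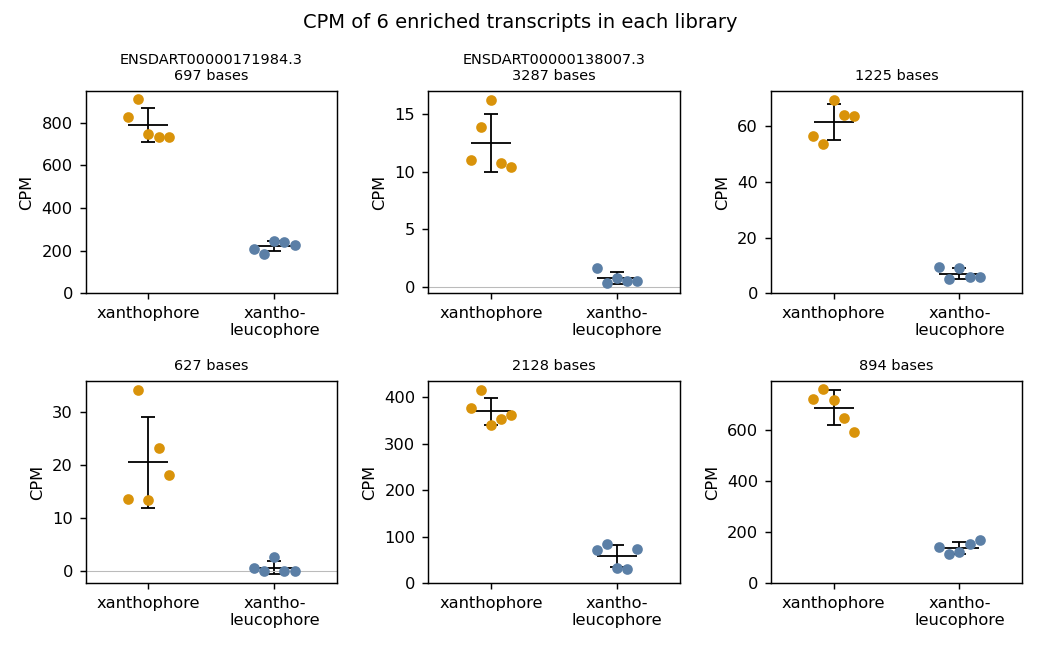
CPM of 6 enriched transcripts in the 5 xanthophore libraries (left in each panel) and the 5 xantho-leucophore libraries (right), with the mean as a line and the SD as an error bar. Points are libraries in the order of their replicate numbers. No xanthophore point overlaps a xantho-leucophore point in any panel, as the rule requires of these members. The transcript of 2128 bases shows replicates 3 and 4 of the xantho-leucophores below the others.

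Larger ratios went with lower levels among the members. Ratios of means ran from 2.48 to 29.5, with a median of 4.12. The 28 members between 300 and 1000 CPM in xanthophores had a median ratio of 3.35 and at most 6.28. The 40 members between 100 and 300 CPM had a median ratio of 3.70, the 51 members between 30 and 100 CPM one of 4.55, and the 27 members between 10 and 30 CPM one of 8.17. All 11 members with a ratio of at least 10 and a count in both groups were at or below 24.05 CPM in xanthophores. Of these, 9 had at least 1 xantho-leucophore library at 0 counts, and their median xantho-leucophore mean, over the 11, was 0.857 CPM. Such ratios rest on very low xantho-leucophore levels. The rule used these levels, so the order is a description.

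**Figure D4:**
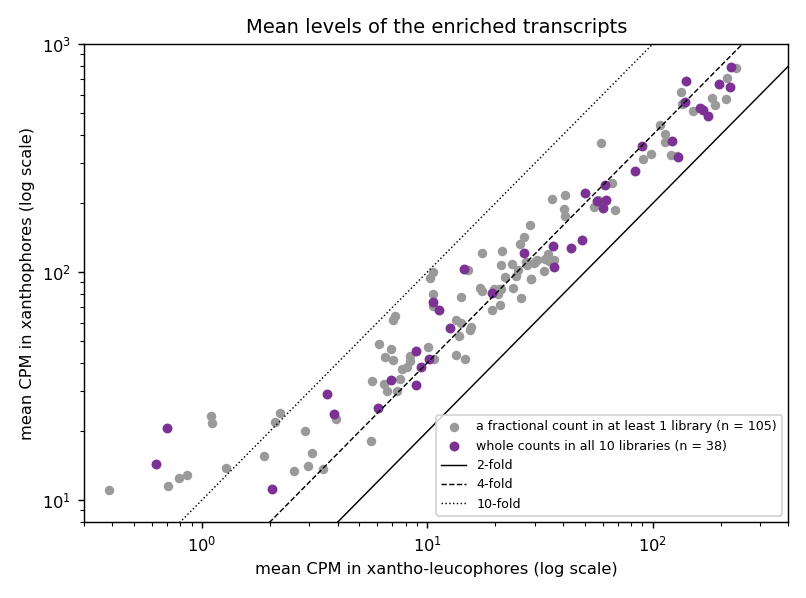
Mean CPM in xanthophores (vertical) against mean CPM in xantho-leucophores (horizontal), both on log scales, for the 143 enriched transcripts with a count in both groups. Lines mark ratios of 2, 4 and 10. The 11 transcripts beyond 10-fold all lie at or below 24.05 CPM in xanthophores, and 9 of them have a xantho-leucophore library at 0 counts. Transcripts with whole counts are spread over the whole range.

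Zeros in xantho-leucophore libraries were seen for a minority of members. An estimate was taken as 0 where it rounded to 0 counts, as in the counts used for the test. By that measure 121 of the 146 members had a count in all 5 xantho-leucophore libraries, and another 22 were at 0 in 1 to 4 of them. One of the 22, of 2132 bases, was listed slightly above 0 in replicate 5, at 0.000542 of a count. Replicate 2, the shallowest, was at 0 for 16 of the 22, and for 10 of those it was the only one at 0.

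The zeros were set against the depth of the library that held them. At the mean CPM of the other xantho-leucophore libraries, the depth of replicate 2 would give a median of 60.3 counts for its 16 members at 0, with a range from 3.75 to 205, and 12 of them would have more than 10. In replicate 3, at 0 for 9 members, the same reckoning gives a median of 81.3 counts and up to 593. Of the 22 members, 7 had whole counts in every library and the others had fractional counts in some or all. The part of read sharing in these zeros was not tested.

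For 3 members the condition of the rule was met without a separation. Transcripts of 5432, 7394 and 5742 bases had 0 counts in all 5 xantho-leucophore libraries and also in some xanthophore libraries, so that 0 was compared with 0. The transcript of 5432 bases had 6.40, 0, 4.22, 14.98 and 27.2 CPM in xanthophore replicates 1 to 5. That of 7394 bases had 0, 0, 4.42, 21.7 and 45.2 CPM, and that of 5742 bases had 14.4, 0, 28.4, 9.74 and 0 CPM. Each ranged down to 0 in xanthophores too, so the groups touched, and no fold is given. A further 2 members, both of 1713 bases, had identical values in every library and amount to 1 measurement, which leaves 145 distinct members.

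The edges of the rule cut through a continuum. Just inside lay a transcript of 667 bases with 104.9 CPM in xanthophores, against 36.3 CPM in xantho-leucophores on average, whose nearest libraries were 2.004 times apart. Just outside lay one of 622 bases with 20.9 CPM in xanthophores, against 6.42 CPM in xantho-leucophores, at 1.997 times. Among the 11396 transcripts within the abundance limits, 1057 (9.28%) had every xanthophore library above every xantho-leucophore library. A mean ratio of at least 2 was reached by 1326. Of these, 610 had groups that overlapped or touched, the 3 members at 0 among them. Another 573 of the 1326 had separate groups whose nearest libraries were less than 2 times apart.

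By edgeR's quasi-likelihood test, adjusted over all tested transcripts after Benjamini and Hochberg, 116 of the 143 members that passed the low-count filter were called higher in xanthophores, where 2.56% of all 28667 tested transcripts and 5.55% of those within the abundance limits were. Because the choice used this contrast, the count shows only how the test treats the members. The members that passed had a median log2 fold change (xanthophore over xantho-leucophore) of 2.01, with a range from 1.27 to 4.74, and the median over all tested transcripts was 0.04. The 3 members without counts in xantho-leucophores did not pass the filter.

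The 27 members that were not called in this fit were largely those with zeros. Of the 121 members with counts in all xantho-leucophore libraries 116 were called, and of the 22 with a library at 0 counts 0 were, although their median log2 fold change was 2.95. Their median standard error was 0.997, against 0.23 for the 121. All 28 members above 300 CPM in xanthophores were called, as were 37 of 40 between 100 and 300 CPM, 39 of 51 between 30 and 100 CPM, and 12 of 24 tested below 30 CPM. The shares called among all transcripts with such zeros or at such levels were not worked out. Neither pattern is therefore shown to be particular to the members. Without xantho-leucophore replicate 2, 127 of 144 members tested were called, where 2.59% of all 30411 tested transcripts and 5.72% of those within the abundance limits were. The split by zeros was not found in every fit. By limma on log2(TPM + 1) all 143 members tested were called, where 1327 of 28667 tested transcripts were called higher in xanthophores.

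Fewer members, and fewer of all tested transcripts, were called once fragment length entered the fit. The groups did not overlap in fragment length, so such a fit cannot fully tell it apart from cell type. With a covariate for each library's fragment length, 66 members were called, where 0.673% of all tested transcripts and 1.40% of those within the abundance limits were. The 66 had also been called without the covariate. With the covariate and without xantho-leucophore replicate 2, a fit added after the values were seen, 46 of 144 members tested were called, where 0.276% of all tested transcripts and 0.535% of those within the abundance limits were. The members called in every one of the 22 alternative fits, these 2 among them, numbered 40. The share of all tested transcripts called in every fit was not worked out, so this count is a description. With the covariate and all libraries, called members were concentrated among the abundant ones, with 25 of 28 above 300 CPM in xanthophores but 2 of 24 tested below 30 CPM. Shares over all transcripts at these levels were not worked out here either, so the pattern is not shown to be particular to the members. The median log2 fold change of the members was 2.01 without the covariate and 1.70 with it. It was 1.80 with the covariate and without xantho-leucophore replicate 2. ENSDART00000171984.3 had a log2 fold change of 1.49 with the covariate and 1.79 (SE 0.10) without it, and was called in both fits. ENSDART00000138007.3, the member with the widest separation, had 3.31 with the covariate and 3.90 (SE 0.54) without it. It was called without the covariate but not with it (adjusted p 0.0842 in edgeR's test). Only 1 member, of 3117 bases, was fitted below 0 with the covariate and all libraries. Its log2 fold change was -0.00154 there, against 2.27 without the covariate. This member was at 0 in xantho-leucophore replicate 2, the library with the longest fragments.

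A library left out of the choice gives values that the choice did not use. When the rule was applied without 1 xanthophore library, it chose from 151 to 211 transcripts. Between 92.4% and 98.8% of them lay above the highest xantho-leucophore library in the left-out one, and between 67.8% and 95.4% did so by at least 2 times. Over all transcripts within the abundance limits, 22.6% to 28.0% lay above it in the same library. A 2-fold excess there was found for 3.45% to 4.33%. Only the left-out library is new in this comparison, since the libraries of the other group had served in the choice. The remaining xanthophore libraries already had to reach at least 2 times the same highest xantho-leucophore library. A high share above that library was therefore likely from the choice. Apart from the mean limits, a transcript that holds at 2-fold in the left-out library meets the full rule. Those counted were thus mostly the members again, 143 to 147 in number. The 2-fold share mainly reflects how many were chosen without the library. Neither share gives independent support for the difference.

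By the transcripts chosen without it, xanthophore replicate 5 was the least alike of its group. Without it 211 transcripts were chosen, of which 195 lay above the highest xantho-leucophore library in replicate 5 and 143 did so by at least 2 times. Over all transcripts within the abundance limits, 22.6% lay above it in replicate 5 and 3.69% did so by at least 2 times. Replicate 5 was also set against the median of the other 4 xanthophore libraries, over the chosen transcripts where both were above 0. Its median log2 level relative to them was -0.25, where the other left-out xanthophore libraries ranged from -0.11 to 0.11. The choice kept transcripts that were high in the rest of the group, which favours values below 0. Replicate 5 was also the lowest xanthophore library for 57 of the 143 members with a count in both groups, followed by replicate 4 for 34 and replicate 3 for 29. As shown above, the most abundant transcript took its largest share of the counts in this library. On TMM-scaled library sizes the summed level of the members in replicate 5 was 23138 CPM. There replicate 3 was the lowest of the group, at 22419 CPM.

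Leaving out a xantho-leucophore library gave from 175 to 197 chosen transcripts. Between 72.6% and 81.7% of them were at least 2 times lower in the left-out library than in any xanthophore library, where 7.08% to 14.8% of all transcripts within the abundance limits were. In each case these were 143 transcripts, which again meet the full rule apart from its mean limits. This share gives no independent support for the difference either. The left-out library was also set against the median of the rest of its group, over the chosen transcripts where both were above 0. The median log2 difference was above 0 in each case, from 0.09 in replicate 2 to 0.30 in replicate 1. Transcripts at 0 in the left-out library do not enter this value. The choice kept transcripts that were low in the rest of the group, which favours values above 0. The sign is therefore a description. Replicate 1 set the upper limit for 36 members, replicate 3 for 31, replicate 2 for 29, replicate 4 for 28 and replicate 5 for 19.

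**Figure D5:**
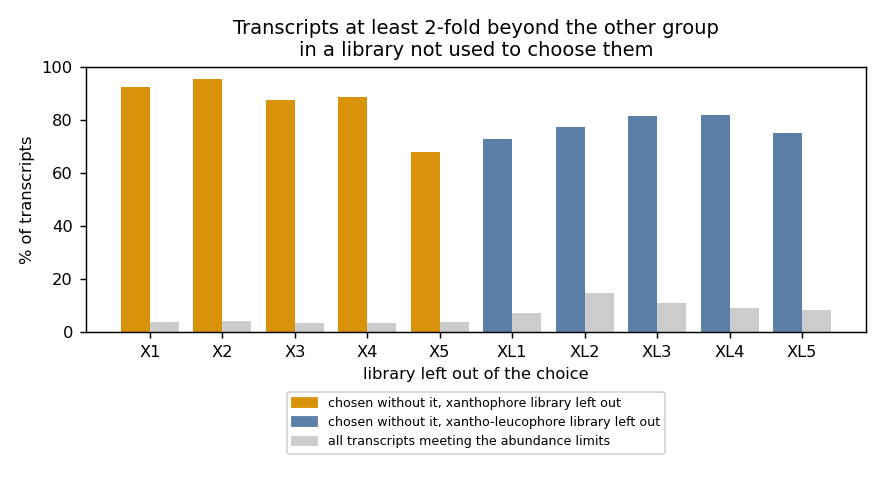
Share of transcripts at least 2-fold beyond every library of the other group in a library that was left out of the choice. Coloured bars are the transcripts chosen without that library and grey bars all transcripts within the abundance limits. Transcripts counted in the coloured bars meet the full rule apart from its mean limits. Coloured bars lie between 67.8% (xanthophore replicate 5) and 95.4%, and grey bars between 3.45% and 14.8%.

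The members varied less among xanthophores than among xantho-leucophores. The median SD of log2(CPM + 1) over the 143 members with a count in both groups was 0.20 among xanthophore libraries, against 0.43 among xantho-leucophore libraries, and 129 of the 143 had the larger SD in xantho-leucophores (90.2%). Without xantho-leucophore replicate 2 the xantho-leucophore value was 0.37, and 121 of the 143 (84.6%) had the larger SD there, against 56.2% of all transcripts within the abundance limits. Over all transcripts within the abundance limits the medians were 0.39 in xanthophores and 0.51 in xantho-leucophores, with 65.9% larger in xantho-leucophores. Both the lowest xanthophore and the highest xantho-leucophore library entered the rule, so these spreads are a description. The mirrored rule, which chose 110 transcripts enriched in xantho-leucophores, gave the opposite picture, with a median SD of 0.35 in xanthophores and 0.27 in xantho-leucophores. In both sets the larger median SD was in the group with the lower level. Median levels in xanthophores and xantho-leucophores were 94.2 and 21.1 CPM for the 143 members, and 12.2 and 64.6 CPM for the mirrored rule. The part of level in these spreads was not tested.

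Length was not used by the rule, and the median length was 1770.0 bases for the members, against 2444.5 bases for all transcripts within the abundance limits. When those transcripts were divided into 5 length classes of like size, of the shortest, up to 1406 bases, 54 of 2283 were members (2.37%). This share was 1.41%, 1.14%, 0.791% and 0.702% in the successive longer classes, the last holding 16 members of at least 4540.0 bases. The mirrored rule behaved alike, with a median of 1503.5 bases, 2.19% chosen in its shortest class and 0.404% in its longest. No test was made of these shares. The median log2 ratio of mean CPM over all transcripts within the limits was 0.05 in the shortest class and 0.14 in the longest.

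Whether counts were whole or fractional was not used by the rule either, and no test was made of it. Whole counts in all 10 libraries were found for 38 members (26.0%), against 18.2% of all transcripts within the abundance limits and 30% of the 110 of the mirrored rule. Fractional counts in all 10 libraries were found for 58 members (39.7%), against 49.7% and 32.7% in the same 2 sets. The 38 members with whole counts had a median of 129 CPM in xanthophores, 39.7 CPM in xantho-leucophores and a median ratio of 3.99, where the 58 had 89.1 CPM in xanthophores, 20.8 CPM in xantho-leucophores and a median ratio of 4.005. In edgeR's test 30 of the 38 were called, where 6.57% of all whole-count transcripts within the abundance limits were called higher in xanthophores. Of the 58, 54 were called, where 4.96% of such transcripts with fractional counts throughout were. A listed 0 is a whole count, so a transcript with one cannot be among the 58.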

How the data were processed

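Bulk RNA-seq of sorted cells was available for 10 libraries, 5 per group. Per the submitters' processing notes, bcl2fastq, fastp and kallisto were used and GRCz11 is named, with no versions, roles or order. The deposited tables give, per the file headers, estimated counts and TPM per transcript, which the authors made before deposit. Estimated counts were divided by each library's total for CPM, and rounded for the count tests. Members, gene lists and tests were chosen with earlier results of these data known, and the members with the values reported. With no pairing of transcripts to genes, the gene and marker lists could not be used. Identifiers are printed for the member with the widest gap between nearest libraries and for the one with the highest xanthophore mean; others are given by length. A count was called whole within 1e-06, and 0 where it was under 0.5.

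All transcripts were fitted in edgeR 4.0.16 (R 4.3.3; quasi-likelihood, TMM, filterByExpr, rounded counts), with Benjamini-Hochberg adjustment and a threshold of 0.05 on the adjusted p. The script was tested on simulated data. Alternatives used DESeq2 1.42.0, limma 3.58.1 on log2(TPM + 1) or log2(TPM + 0.1), other scalings and filters, fragment length as a covariate, and left-out libraries. Fragment length was taken from transcripts over 5000 bases as the median of length minus effective length, so it is an inferred value. Totals per library were 42104732 to 62617916 for the xanthophore libraries, against 7735704 to 59106662 for those of xantho-leucophores. Floors of 3 counts cover counting error only.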

Additional observations from a re-analysis of the deposited data

Results flagged for a closer look

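Among 62 groups of 5 values looked at, 8 held an extreme library that was separated from the next one by more than 0.71 of that group's range. This limit flags about 1 in 20, or 3.1, among independent, normally distributed groups. These groups reuse the same libraries and several rescale 1 sum, so 8 against 3.1 shows no excess by itself. In CPM of the single members, the limit was passed for 9 members in xanthophores and 12 in xantho-leucophores. Xantho-leucophore replicate 2 stood apart in fragment length (235.05 bases, the next at 217.19), in its total of 7735704 estimated counts, and in the summed level of the enriched transcripts on TMM-scaled library sizes (5829 CPM, the next at 6721). It was also low for the transcript of 2065 bases, at 80.4 CPM with the next at 142 CPM. Xanthophore replicate 5 held only 67.8% of the transcripts chosen without it at 2-fold, with the next library at 87.4%. That gap was 0.712 of the range, barely past the limit, and the share mainly reflects how many were chosen.

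The other 3 were single libraries of scarce transcripts. Xantho-leucophore replicate 3 had 2.80 CPM of the 627-base transcript, with the next at 0.697 CPM. Xantho-leucophore replicate 4 had 1.94 CPM of the transcript of 1188 bases, which was at 0 counts in the other xantho-leucophore libraries. Xanthophore replicate 1 had 16.6 CPM of the transcript of 1249 bases, with the next at 12.7 CPM.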

How the results depend on the processing

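The count of called members stayed within 1.5 times of 116 in 20 of 22 alternatives, and was 66 with fragment length as a covariate and 46 with that covariate and without xantho-leucophore replicate 2, a fit added after seeing the data. Without 1 library it ran from 110 to 127, where 540 to 789 of 29630 to 30411 tested transcripts were called higher in xanthophores. The highest counts were 143 of 143 members in limma on log2(TPM + 1) and 136 of 146 in DESeq2. In these fits 1327 of 28667 and 1742 of 35112 tested transcripts were called higher in xanthophores. The share of all tested transcripts called higher was 2.56% in the main fit and 0.673% with the covariate. It was 0.276% with the covariate and without xantho-leucophore replicate 2. Over all transcripts 1443 were called in either direction, against 3311 in DESeq2 and 503 with the fragment length covariate. With the covariate and without xantho-leucophore replicate 2 it was 217, and without 1 library 1082 to 1521. The members were fitted higher in xanthophores in all 22 alternatives, except 1 member with the covariate and all libraries. In fits without the covariate the choice of the members made this direction all but certain, so it is a description. On TPM scales calls leaned further towards higher in xanthophores, with 1327 of 2089 called transcripts higher for log2(TPM + 1) and 1146 of 1838 for log2(TPM + 0.1). In edgeR 735 of 1443 were. The median log2 fold change over all transcripts on those TPM scales was 0.15 and 0.27. In the other fits this median ran from -0.17, with the covariate and all libraries, to 0.24, in limma on weighted log2 counts (voom). A shift of that size was therefore not particular to TPM.

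Deviations from the group means were correlated between libraries of equal number by -0.06 to 0.02 over all tested transcripts, and by -0.27 to 0.16 over the members, with 2 of the 5 pairs above 0.1 there. The numbers were not taken to pair the samples. With the replicate block 798 of 28667 tested transcripts were called, 413 of them higher in xanthophores. Of the members 104 were called, all higher in xanthophores.

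The number of members was 359 at 1.5-fold, 24 at 3-fold, 38 among transcripts with whole counts, 151 to 211 without 1 library, and 261 without xanthophore replicate 5 and xantho-leucophore replicate 2, a pair left out after seeing the data. The rule on TPM chose 177, of which 130 were among the 146. Summed TPM averaged 32497 in xanthophores and 8983 in xantho-leucophores. Without 1 library the summed CPM averaged 23476 to 24288 in xanthophores and 6429 to 6628 in xantho-leucophores. Tests per gene were not run, since transcripts could not be paired with genes. The depth of xantho-leucophore replicate 2 limits what its zeros show for the scarcest members.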

Other observations

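The upper limit of 1000 CPM kept 12 transcripts out that met the other conditions. Their means ran from 1025 to 4421 CPM in xanthophores, and their ratios of means from 2.47 to 4.02. The most abundant of them, of 1273 bases, averaged 4421 CPM in xanthophores, against 1528 CPM in xantho-leucophores.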
